A study of Mus musculus with 6 samples.

Results

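Astrocytes_2 is the smaller of the 2 astrocyte subtypes that the authors of the study defined in the mouse cortex at postnatal day 5 (P5). Its members are the cells that carry this name in their deposited annotation, 751 of 18393 cells (4.08%) and 751 of 7122 astrocytes (10.5%). Single cells were profiled by InDrop, in which a cell and a barcoded bead share a droplet and a unique molecular identifier (UMI) on each primer lets PCR copies of a transcript be counted only once. The 3 wild type mice (WT) were FVB.129P2-Pde6b+ Tyrc-ch/AntJ, and the 3 *Fmr1* knockout mice (*Fmr1*-KO) were FVB.129P2-Pde6b+ Tyrc-ch Fmr1tm1Cgr/J. Both groups therefore share the FVB.129P2 background, the Pde6b+ and Tyrc-ch alleles and the age, and mice of both sexes were used. WT 1, *Fmr1*-KO 1 and *Fmr1*-KO 2 formed batch 1 with bead version V2, and WT 2, WT 3 and *Fmr1*-KO 3 formed batch 2 with V3.8, so that bead version and batch cannot be told apart.

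Astrocytes take up glutamate and GABA, buffer potassium, supply cholesterol in lipoproteins and secrete proteins that guide synapse formation. In the first postnatal week cortical astrocytes still divide and mature, and they descend from radial glia, the stem cells of the ventricular zone. After injury or inflammation astrocytes become reactive, with changes that depend on the insult. The study marked Astrocytes_1 by *Aqp4*, *Aldoc* and *Apoe*, and Astrocytes_2 by *Ptx3*, *Igfbp5* and *C4b*, which it describes as markers of reactive astrocytes.

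The subtype had from 69 cells (WT 3) to 152 cells (WT 1) per mouse. Its summed UMIs ranged from 277868 (WT 3) to 588671 (WT 1), so that 1 UMI was worth between 1.70 and 3.60 CPM (the UMIs of a gene scaled to a total of 1e6 UMIs over the cells of the subtype in the mouse). The median cell had 3219 UMIs in Astrocytes_2 and 3755 in Astrocytes_1. By mouse the medians were 3718, 1947 and 3717 in WT and 3591, 3138 and 3671 in *Fmr1*-KO mice for Astrocytes_2, against 3860.5, 2114.5 and 7113 and 4113, 2225 and 5163 for Astrocytes_1. Of the 654 different barcodes of Astrocytes_2 cells, 74 occurred in more than 1 library, as did 2231 of 15463 barcodes overall. Summed counts of no pair of mice were as close as sampling noise would make them (chi-square of 1.72 to 5.76 per degree of freedom).

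The share of Astrocytes_2 among astrocytes varied between the WT mice. It was 15.5% in WT 1, 6.58% in WT 2 and 4.43% in WT 3, with Wilson 95% intervals of 13.4 to 17.9%, 5.57 to 7.77% and 3.51 to 5.57%. In the *Fmr1*-KO mice it was 13.4% (11.3 to 15.9%), 16.8% (14.4 to 19.4%) and 15.4% (13.2 to 17.8%), where the intervals cover counting error only. WT 2 and WT 3 thus lay below the other 4 mice, and WT 1 lay among the *Fmr1*-KO mice. Single libraries ranged from 3.28 to 5.06% over the 3 libraries of WT 3, from 5.58 to 7.89% in WT 2 and from 12.8 to 18.9% over the 2 libraries of WT 1. In the *Fmr1*-KO mice they ranged from 12.3 to 20.5%. The WT mean was 8.85% ± 5.89 (SD, n = 3) and that of *Fmr1*-KO mice 15.2% ± 1.68, and a two-sided exact permutation test over the mice gave p = 0.30, where the smallest possible value is 0.10. The difference of *Fmr1*-KO minus WT was -0.454 percentage points within batch 1 and 9.88 points within batch 2.

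**Figure D1:**
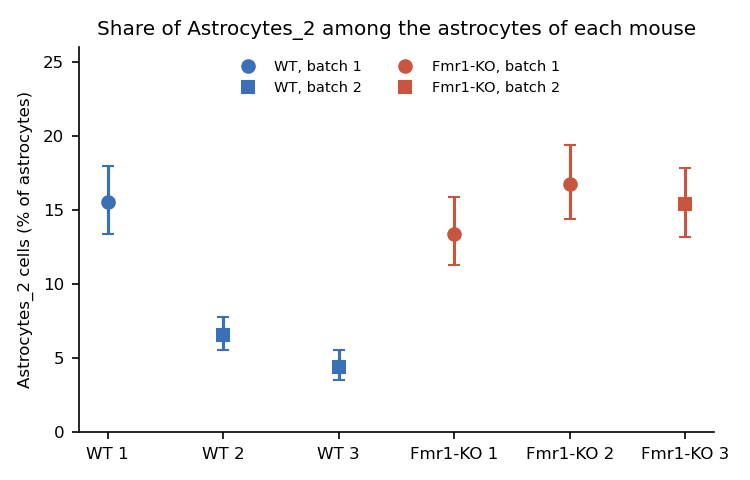
Share of Astrocytes_2 cells among all astrocytes (y axis, percent) in each of the 6 mice (x axis), with Wilson 95% intervals as bars, circles for batch 1 and squares for batch 2. WT 2 (6.58%) and WT 3 (4.43%) lie below the other 4 mice, which lie between 13.4 and 16.8%.

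To see what sets the subtype apart, its CPM were divided by those of Astrocytes_1 within each mouse, after adding 5 CPM to each, and the log2 ratios were averaged over the 6 mice. A gene was counted as higher or lower where this mean was at least 1 in size and the sign was the same in all 6 mice. Because the authors clustered the cells on the same counts, these ratios are a description and were not tested. Of 7526 genes with a mean of at least 20 CPM over the 12 sums, 273 were higher (3.63%) and 200 were lower (2.66%) in Astrocytes_2. The 6 values of Astrocytes_2 did not overlap those of Astrocytes_1 for 231 of the 273 higher and 172 of the 200 lower genes. The rule for higher and lower genes itself favours such separation, and the count over all 7526 genes was not taken. The median ratio of all 7526 genes was 0.13 rather than 0. When the sums were scaled by TMM instead of by their totals, the median became -0.09, and 184 genes were higher and 347 lower, so that higher genes made up 34.7% of the calls in place of 57.7%. The higher genes nearest to the threshold were *Prnp* at 1.00 inside it and *Dync2li1* just outside at 1.00, and on the other side *Aacs* was at -1.001 and *Notch3* at -0.998.

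The 3 markers of the label were all higher in Astrocytes_2 than in Astrocytes_1 in each mouse. *Ptx3* encodes a secreted pentraxin that binds matrix and complement components. It had 206 CPM in the lowest mouse, 291 at the median and 378 in the highest, against 43.3, 55.8 and 82.3 in Astrocytes_1, a log2 ratio of 2.19 ± 0.23 (SD, n = 6 mice). *Igfbp5*, which encodes a binding protein of insulin-like growth factors, had 703, 1002.5 and 1533 CPM against 170, 204 and 250, a ratio of 2.30 ± 0.50. For neither gene did the subtypes overlap. *C4b*, which encodes a complement component, had 25.5, 138 and 57.6 CPM in WT mice and 46.6, 26.9 and 21.2 in *Fmr1*-KO mice, against 6.96 to 14.3 in Astrocytes_1. WT 2 stood well above the rest, and the ratio of 1.66 ± 0.76 rested on 118 UMIs.

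In mm10, with gene bounds from GENCODE M21, *Ptx3* lies at chr3:66219910-66225805 on the plus strand, *Igfbp5* at chr1:72857932-72874884 on the minus strand and *C4b* at chr17:34728380-34743882 on the minus strand. *C4b* has a near-identical copy, *C4a*, with 5 UMIs in the subtype, and reads that matched more than 1 position were ignored by the authors, so that its level is uncertain. *Ptx3* lies wholly within the bounds of *Veph1*, a gene of the minus strand that was higher in Astrocytes_2 too (104, 164 and 219 CPM against 11.7, 20.7 and 35.5). Whether reads were assigned by strand was not given in the sources used here, so that reads of these genes cannot be told apart with certainty. Their levels differed in other cells, with 2.13 CPM of *Ptx3* and 45.5 of *Veph1* in pooled excitatory neurons, and 101 and 43.3 in pooled SVZ cells (subventricular zone migrating neurons).

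Seen cell by cell, the markers were enriched rather than universal. A UMI of *Ptx3* was found in 42.5% of Astrocytes_2 and 17.4% of Astrocytes_1 cells, one of *Igfbp5* in 70.2% and 38.8%, and one of *C4b* in 9.59% and 3.91%. With each cell thinned to 700 UMIs (750 and 6365 cells) these shares were 15.1% and 3.79%, 39.5% and 11.4%, and 2.80% and 0.770%. In microglia, which should lack these transcripts and had a median of 2655.5 UMIs, they were 0.370%, 2.47% and 0% before thinning, and 0 of 810 cells allows up to 0.370%. Of the 751 cells, 29 had UMIs of all 3 markers, 267 of 2, 297 of 1 and 158 of none. *Sfrp1*, which encodes a secreted inhibitor of Wnt signalling, was seen in more of the cells than any of the markers, with a UMI in 77.2% against 46.2% of Astrocytes_1 (52.9% and 13.1% when thinned).

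The highest ratio of all belonged to *Tfap2c*, which encodes the transcription factor AP-2 gamma, known in the developing cortex from radial glia and basal progenitors. It had 50.4, 59.5 and 118 CPM (lowest, median and highest mouse) in Astrocytes_2 and 0, 0.519 and 1.93 in Astrocytes_1, a log2 ratio of 3.68 ± 0.45 (SD, n = 6). Only 0.361% of Astrocytes_1 cells had a UMI, against 16.2% of Astrocytes_2. *Mycn*, a transcription factor gene of dividing progenitors, had 32.7, 46.2 and 77.2 CPM against 0.359, 3.87 and 4.02 (2.81 ± 0.51). *Tspan18*, a tetraspanin gene, had 122, 188 and 260 CPM against 8.07, 18.5 and 30.1 (3.09 ± 0.36). The other genes among the 12 highest were *Enkur* (3.14), *Shroom3* (3.11), *Fstl5* (3.08), *Adamts18* (3.06), *1810041L15Rik* (3.01), *Fam107a* (2.97), *Cacng5* (2.84), *Serinc2* (2.80) and *Pter* (2.76). They cover a ciliary protein (*Enkur*), a regulator of apical constriction (*Shroom3*), a secreted metalloprotease (*Adamts18*) and a gene known from outer radial glia (*Fam107a*).

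*Fam107a* was the exception among these 12 genes in its spread. It had 127, 211 and 238 CPM in WT mice and 128, 136 and 164 in *Fmr1*-KO mice. In Astrocytes_1 it had 133 CPM in WT 3 but only 5.96 to 17.0 in the other 5 mice. The ratio was therefore 0.81 in WT 3 and 3.11 to 3.62 in the others.

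At the other end were genes with few UMIs in the subtype and clear levels in Astrocytes_1. *Pla2g3*, which encodes a secreted phospholipase, had 0, 5.05 and 15.9 CPM against 125, 256 and 455 in Astrocytes_1, a log2 ratio of -4.61 ± 0.47 (SD, n = 6) that rested on 18 UMIs in Astrocytes_2. *S100b*, a calcium-binding protein gene that is switched on as astrocytes mature, had 3.60, 10.8 and 17.0 CPM against 97.2, 131 and 208 (-3.24 ± 0.84). For both genes every mouse had less in Astrocytes_2 than any mouse had in Astrocytes_1. *Chrdl1*, an astrocyte-secreted factor known to drive synapse maturation, had 4.66, 15.8 and 40.3 CPM against 176, 199 and 239 (-3.34 ± 0.73). The other genes among the 8 lowest were *Serpinf1* (-3.76), *Grin3a* (-3.16), *Fzd10* (-2.95), *Slc14a1* (-2.85) and *Fam84a* (-2.72). *Serpinf1* encodes the secreted factor PEDF, *Grin3a* an NMDA receptor subunit, *Fzd10* a Wnt receptor and *Slc14a1* a urea transporter. *Pla2g3* and *S100b* each overlap a gene of the opposite strand in part, *Inpp5j* and *Dip2a*, and *Grin3a* overlaps *Ppp3r2*.

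**Figure D2:**
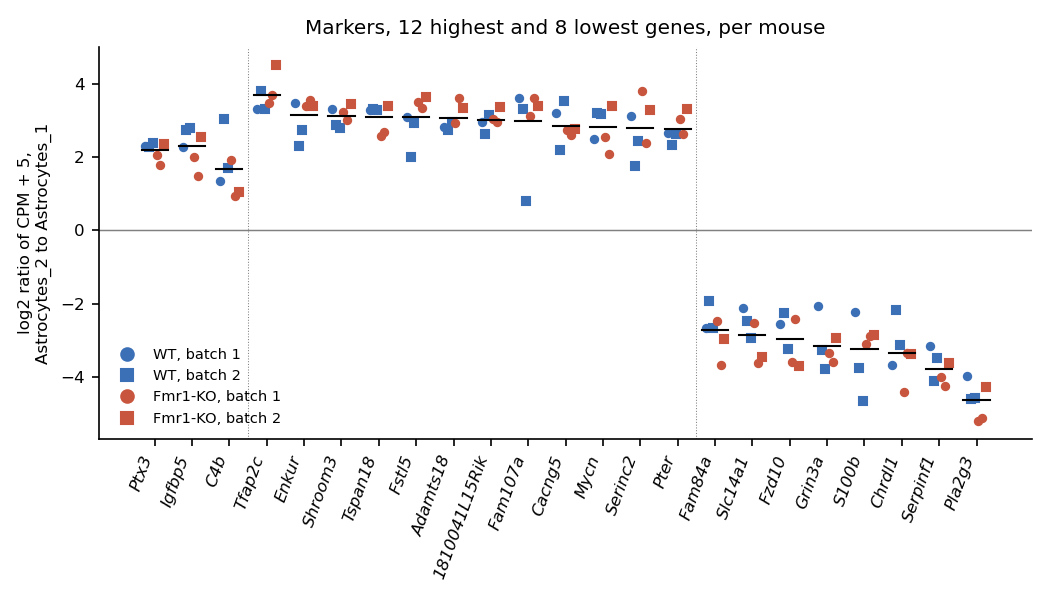
Log2 ratio of CPM + 5 in Astrocytes_2 to Astrocytes_1 (y axis) in each mouse for the 3 markers, the 12 genes with the highest and the 8 with the lowest mean ratio (x axis). Points are mice (blue WT, red *Fmr1*-KO, circles batch 1, squares batch 2) and black lines are means. All 6 mice lie on the same side of 0 for each gene, and *Fam107a* in WT 3 (0.81) lies apart from the other 5 mice.

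The cells nevertheless carried the genes that define astrocytes. *Slc1a3*, the glutamate transporter GLAST, had a UMI in 99.5% of Astrocytes_2 and 99.4% of Astrocytes_1 cells. Of 20 core astrocyte genes 7 were lower and 0 higher, with a median log2 ratio of -0.71 beside 0.13 for all genes. The lower genes were *S100b*, the water channel gene *Aqp4* (236, 326 and 489 CPM against 1173, 1732 and 2319, -2.33 ± 0.23), the bicarbonate transporter gene *Slc4a4* (-1.73), *Fgfr3* (-1.44), *Aldh1l1* (-1.26), *Acsl6* (-1.23) and *Apoe* (-1.003). Nearer to 0 were *Aldoc* (-0.34 ± 0.28), *Slc1a3* (-0.40 ± 0.09) and *Slc1a2* (-0.68 ± 0.12). *Aqp4*, *Aldoc* and *Apoe* are themselves the genes by which the study marked Astrocytes_1. *Sox9*, the transcription factor of the astrocyte lineage, had 1356, 1470 and 1560 CPM against 880.1, 970.5 and 998 (0.62 ± 0.08), and *Clu*, which encodes the lipoprotein clusterin, had a ratio of 0.92 ± 0.32, both short of the threshold.

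The tools of transmitter and potassium handling were lower as a group. Of 18 genes for glutamate and GABA uptake and reception, potassium channels and gap junctions, 10 were lower and 0 higher, with all 18 ratios negative and a median of -1.26. *Gabbr2*, a GABA-B receptor subunit gene, had 1.77, 4.35 and 18.6 CPM against 48.3, 58.0 and 96.2 (-2.55 ± 0.44). The metabotropic glutamate receptor genes *Grm5* (-2.09 ± 0.45) and *Grm3* (-1.99 ± 0.23) followed, then the potassium channel gene *Kcnj16* (-1.64 ± 0.50), the glycine transporter gene *Slc6a9* (-1.60 ± 0.43) and the amino acid transporter gene *Slc38a3* (-1.46 ± 0.17). The GABA transporter gene *Slc6a11* (-1.25 ± 0.20), *Gabbr1* (-1.39 ± 0.43) and the connexin gene *Gjb6* (-1.28 ± 0.68) were lower too.

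Genes of secreted proteins lay on both sides. Among 16 astrocyte factors that act on synapses 4 were lower and 0 higher (median -0.39), namely *Chrdl1*, *Sparcl1* (-1.78 ± 0.26), the phagocytosis receptor gene *Mertk* (-1.62 ± 0.39) and *Bdnf* (-1.60 ± 0.91). Of 19 genes of the extracellular matrix 2 were higher and 5 lower. The proteoglycan genes *Ncan* (1098, 1640 and 1933 CPM against 5701, 6780 and 8076, -2.14 ± 0.19) and *Bcan* (-1.63 ± 0.43), the link protein gene *Hapln1* (-1.32 ± 0.44) and the protease inhibitor gene *Timp4* (-1.73 ± 0.46) were lower beside *Sparcl1*. *Fbln2* (183, 218 and 237 CPM against 71.1, 76.4 and 84.3, 1.40 ± 0.19) and *Lama2* (1.36 ± 0.24), a fibulin and a laminin of basement membranes, were higher. The median of this list was 0.13, which turned to -0.10 under TMM scaling.

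Members of the insulin-like growth factor system were split within the family of binding proteins. *Igfbp5*, *Igfbpl1* (14.4, 31.3 and 114 CPM against 1.03, 5.03 and 11.2, 2.02 ± 1.07) and the receptor gene *Igf1r* (126, 213 and 289 CPM against 59.6, 80.8 and 116, 1.23 ± 0.26) were higher. *Igfbp2*, the neighbouring gene of *Igfbp5* on chromosome 1, had 144, 153 and 236 CPM against 881, 943 and 1109 (-2.53 ± 0.31), and the protease gene *Htra1* was also lower (-1.36 ± 0.04). The median of the 11 genes was 0.25, and *Igfbp5* is itself a gene by which the study marked Astrocytes_2.

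The list of radial glia and neural progenitor genes held higher and lower members. Of its 20 genes 3 were higher, 1 was lower and 13 had a positive ratio, with a median of 0.47. *Notch2*, a Notch receptor gene, had 312, 350.4 and 421 CPM against 119, 124 and 154 (1.43 ± 0.18), and *Pax6*, a transcription factor gene of dorsal radial glia, was just past the threshold (1.01 ± 0.35). *Fabp7*, a fatty acid binding protein gene of radial glia and young astrocytes, was the lower one (-1.12 ± 0.08). *Hopx* (0.78 ± 0.59), *Sox2* (0.59 ± 0.19) and *Nes* (0.57 ± 0.41) were not past the threshold. Over all genes 4791 of 7526 ratios were positive, a like share. The summed level of the 20 progenitor genes was 24440 to 30323 CPM against 32900 to 42853 in Astrocytes_1, and higher in Astrocytes_2 in 0 of 6 mice. Of 19 cell cycle genes 0 were higher and 2 were lower (*Cdk1* -1.26 ± 0.68, *Ccna2* -1.002 ± 0.91). The summed level of all 24 genes of this list was 536 to 1094 CPM against 1154 to 1491 in Astrocytes_1. The Astrocytes_1 level was uneven between the authors' clusters, with all mice pooled. A cluster of 408 cells had 7857 CPM, one of 1944 cells had 1088, and the others had 317 to 573. The larger cluster of Astrocytes_2 had 990 CPM, above most clusters of Astrocytes_1, and the smaller had 369.

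Some transcription factor genes of the forebrain were higher, and some genes of astrocytes of other brain regions were lower. Of 10 telencephalic patterning genes 3 were higher and 0 lower (median 0.50), among them *Emx1* (21.1, 42.1 and 60.4 CPM against 6.17, 7.64 and 11.2, 1.79 ± 0.62) and *Zbtb20* (396, 521 and 550 CPM against 121, 156 and 184, 1.66 ± 0.18). *Emx1* marks the dorsal telencephalon, and *Zbtb20* encodes a zinc finger protein. Of 7 genes known from astrocytes outside the telencephalon 4 were lower and 0 higher (median -1.25): *Agt* (-1.75 ± 0.97), *Slc6a9*, *Islr* (-1.30 ± 0.42) and *Slc6a11*. Of all 18 genes of this list 4 had 0 UMIs in the 751 cells, and each of the others had at least 1 UMI. The 4 were *En1*, *En2*, *Hoxb3* and *Hoxb5*, which pattern the midbrain, hindbrain and spinal cord. With cells taken as independent, 0 UMIs allow a share of cells with a UMI of up to 0.399%. For these 4 genes no comparison with Astrocytes_1 is made here.

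The *Id* genes, targets of BMP signalling, lay on both sides too. *Id3* (258, 376 and 460 CPM against 1760, 1888 and 2038, -2.38 ± 0.26), *Id2* (-1.94 ± 0.35) and *Id1* (-1.34 ± 0.25) were lower, whereas *Id4* was higher (719, 822 and 864 CPM against 332, 379.5 and 516, 1.03 ± 0.19). With *Hey2* (-1.33 ± 0.59) and *Nkd1* (-1.26 ± 0.20), 5 of 11 Notch, BMP and Wnt target genes were lower and 1 higher (median -0.88). *Hes1* (0.66 ± 0.36) and *Hes5* (-0.29 ± 0.43), main targets of Notch, were not past the threshold. Of 12 genes of the glia limitans and fibrous astrocytes 4 were higher and 6 lower (median -0.51), and the higher ones were *Sfrp1* (1000.5, 1221 and 1599.9 CPM against 196, 210.4 and 246, 2.49 ± 0.28), *Fbln2*, *S100a6* (1.22 ± 0.14) and *Id4*.

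Most reactive astrocyte genes were too low to pass the filter or short of the threshold. Of 13 pan-reactive genes 5 passed the filter on low levels, and of these *S1pr3* was higher (28.8, 41.6 and 101 CPM against 8.43, 9.77 and 11.1, 1.82 ± 0.63) and *Cd44* lower (22.9, 34.2 and 50.3 CPM against 99.6, 124 and 150.1, -1.69 ± 0.30). *Gfap*, the classic marker, had 127, 367 and 449 CPM against 131, 257 and 521, a ratio of 0.25 ± 0.65 whose sign varied between mice, and *Vim* had a ratio of 0.72 ± 0.16. *Lcn2* and *Timp1* had 0 UMIs in the subtype. Of 13 measured genes of the inflammatory type, 4 passed the filter, and *C4b* and *Ggta1* (30.0, 45.2 and 79.2 CPM against 10.1, 11.9 and 21.6, 1.46 ± 0.30) were higher, with 0 lower. Of 13 genes of the ischaemic type 3 passed, and *Ptx3* was higher while *Stat3* (-0.83 ± 0.51) and *Emp1* (-0.54 ± 0.51) had negative ratios. *C4b* was the only one of 14 complement genes in the table to pass the filter, and *Ptx3* and *C4b* are themselves the markers that the study chose on these cells.

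Stress, interferon and housekeeping groups held few genes past the threshold. *Jund* (1.33 ± 0.23) was the 1 higher gene of 21 immediate early and dissociation stress genes (median -0.15), and *Ifitm3* (1.04 ± 0.50) the 1 higher gene of 7 interferon response genes (median 0.23), with 0 lower in both lists. All 18 genes of cholesterol synthesis had negative ratios (median -0.53), but only *Dhcr7* (-1.24 ± 0.16) was past the threshold. The 3 metallothionein genes had a median of -0.60 and the 80 ribosomal protein genes one of 0.04, with 0 higher and 0 lower in either list. Under TMM scaling every list median shifted down by about the shift of all genes, and the small positive medians of the extracellular matrix, ribosomal protein, oligodendrocyte and endothelial lists became negative. *Pax6*, *S100a6*, *Id4*, *Ifitm3* and *Pdgfrb* were then no longer past the threshold, and 18 further genes of the lists became lower. With these, 14 transmitter and potassium genes were lower in place of 10, 9 core astrocyte genes in place of 7, 5 cell cycle genes in place of 2 (*Top2a*, *Ccnb1* and *Plk1* were added) and 5 cholesterol synthesis genes in place of 1 (*Fdps*, *Cyp51*, *Nsdhl* and *Mvd* were added).

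**Figure D3:**
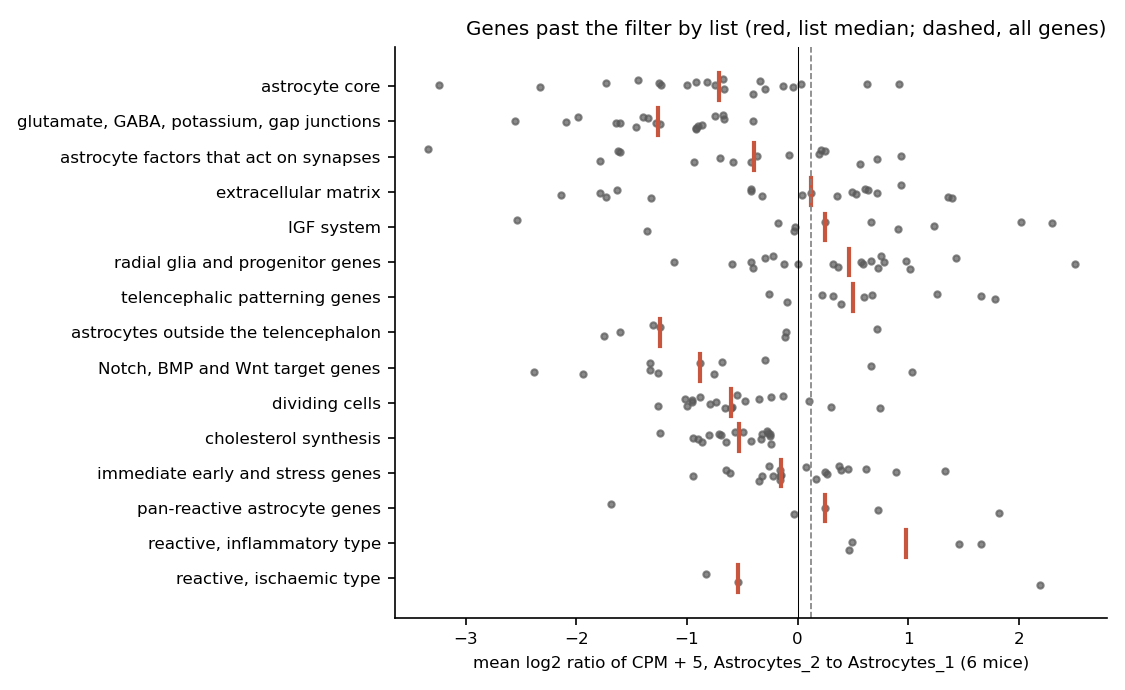
Mean log2 ratio of CPM + 5 in Astrocytes_2 to Astrocytes_1 over 6 mice (x axis) for the genes of 15 lists that passed the filter (y axis). Each point is a gene, red bars are list medians and the dashed line is the median of all genes (0.13). The transmitter and potassium list lies wholly below 0. The progenitor and telencephalic lists lie mostly above it, as do 4791 of all 7526 genes past the filter.

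Markers of other cell types were looked at as whole lists, with 9 to 12 genes of each in the table. The summed level of 10 pericyte markers was 240 to 464 CPM in Astrocytes_2 and 86.8 to 185 in Astrocytes_1, and higher in Astrocytes_2 in 6 of 6 mice. This came largely from *Myl9* (108, 134 and 164 CPM against 14.2, 18.5 and 24.9, 2.51 ± 0.14) and *Pdgfrb* (1.13 ± 0.27), the 2 higher genes of 3 past the filter. The markers *Kcnj8* and *Vtn* were at 0 in all 3 mice of batch 1. In WT 1, *Fmr1*-KO 1 and *Fmr1*-KO 2 *Rgs5* had 5.10, 23.3 and 3.84 CPM and *Abcc9* 1.70, 2.33 and 0. In WT 2, WT 3 and *Fmr1*-KO 3 *Rgs5* had 26.8, 64.8 and 33.5 CPM and *Abcc9* 10.1, 32.4 and 33.5. Their Astrocytes_1 means were 12.6 and 8.28. In batch 2 *Kcnj8* had 23.5, 46.8 and 26.5 CPM and *Vtn* 13.4, 28.8 and 21.2 in WT 2, WT 3 and *Fmr1*-KO 3, above the Astrocytes_1 means of 4.17 and 4.83. The part of pericyte transcripts in the ratios was not tested. Ependymal and choroid plexus markers summed to 57.6 to 223 CPM against 52.7 to 67.7, with *Foxj1*, the regulator of motile cilia, higher (17.99, 46.1 and 73.0 CPM against 4.71, 6.25 and 8.98, 1.99 ± 0.70). Fibroblast and meningeal markers summed to 97.2 to 242 CPM against 70.3 to 140, and endothelial markers to 32.4 to 107 against 37.5 to 87.7.

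Microglia markers separated the batches. Their sum in Astrocytes_2 was 560, 695 and 275 CPM in WT 2, WT 3 and *Fmr1*-KO 3, the mice of batch 2, and 64.6, 74.5 and 88.4 in the mice of batch 1, against 50.6 to 183 in Astrocytes_1. The part of microglial transcripts in the ratios was not tested. Excitatory neuron markers summed to 469, 255 and 35.99 CPM in WT mice and 608, 469 and 81.2 in *Fmr1*-KO mice, against 308, 131 and 27.1 and 334, 359.8 and 43.0 in Astrocytes_1 of the same mice, so that they were higher in Astrocytes_2 in 6 of 6 mice. Interneuron markers summed to 33.5 to 231 CPM against 29.4 to 124 and were higher in 4 of 6. Oligodendrocyte precursor markers (648 to 1511 CPM against 953 to 1326) and oligodendrocyte markers (360 to 743 against 481 to 725) overlapped. In these 4 neural lists and in the endothelial and fibroblast lists 0 genes were higher or lower.

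Astrocytes_2 was made up of 2 of the authors' clusters, which differed in depth. The larger held 530 cells with a median of 4344 UMIs, and the smaller 221 cells with a median of 1204. Against pooled Astrocytes_1, the median log2 ratio of the 273 higher genes was 1.44 in the larger and 1.52 in the smaller cluster, while in the 8 clusters of Astrocytes_1 it lay between -0.15 and 0.08. Over the 473 higher and lower genes the ratios of the 2 clusters had a Pearson correlation of 0.953 across genes, and 472 had the same sign, but these genes were chosen on the same cells and the ratios share their reference. Over all 7526 genes the correlation was 0.766. The smaller cluster had more excitatory marker UMIs (693 against 299 CPM) and fewer cell cycle UMIs (369 against 990). It made up 28.9%, 49.2% and 14.5% of the subtype in WT mice and 23.2%, 34.9% and 18.8% in *Fmr1*-KO mice, so that WT 2 had most of these shallow cells.

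At equal depth the cells of the subtype held more different genes than those of Astrocytes_1. With each cell thinned to 700 UMIs, the mean number of genes per cell was 552 to 559 in the 6 mice, against 525 to 534 in Astrocytes_1. Without thinning the median was 1968, 1232 and 1995 genes in WT mice and 1985.5, 1811 and 1948 in *Fmr1*-KO mice, and in Astrocytes_1 it was 1886.5, 1264.5 and 2930 and 1958, 1253 and 2315.5. Only the thinned values separate the subtypes in every mouse.

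Set beside all 18 subtypes, Astrocytes_2 was most like Astrocytes_1 over the genes past the filter. Over the 7526 genes the log2 CPM of the pooled cells had a Pearson correlation of 0.903 with Astrocytes_1, 0.731 with ependymal cells, 0.725 with OPC_1 (oligodendrocyte precursors), 0.724 with OPC_2 and 0.702 with ganglionic eminence precursors. The own values of Astrocytes_1 with these 4 subtypes were 0.646, 0.694, 0.647 and 0.610. These are correlations across genes of subtypes that share libraries, and genes are not independent replicates. The filter took genes by their level in the 2 astrocyte subtypes alone, which itself favours a likeness between these 2. The near-equal values of ependymal cells, OPC_1 and OPC_2 rest on 255, 1953 and 104 pooled cells. Of the 273 higher genes 49 had their highest level over the 18 subtypes in Astrocytes_2, 53 in ependymal cells and 26 in SVZ cells. Of the 200 lower genes 89 had it in Astrocytes_1, and these genes were chosen for lower levels in Astrocytes_2 than there. The same shares over all 7526 genes were not taken, so that these counts have no background to be set against.

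The genes that stood out most against the next highest subtype were *Vnn1*, *Veph1*, *Scara3*, *Pter*, *Igfbp5*, *Gpr37*, *Adamts18* and *Fam107a*. *Vnn1*, a pantetheinase gene, had 32.4 CPM in the pooled cells and 8.27 in ependymal cells, and its mean over the 12 sums was under the filter of 20 CPM. *Veph1* had 178 CPM in the pooled cells and 45.5 in excitatory neurons, the next subtype. *Scara3*, a scavenger receptor gene, had 166 CPM against 45.3 in Astrocytes_1, and *Igfbp5* had 1002 against 299 in fibroblasts. *Gpr37*, a receptor gene known from glia, had 50.7 CPM and 16.2 in OPC_2. Other leading genes were not peculiar to the subtype. *Enkur* had 58.6 CPM in Astrocytes_2 and 649 in ependymal cells, *Shroom3* 60.0 and 124. *Tspan18* had 198 CPM and 250 in endothelial cells, and *Naaa*, an acid amidase gene with a ratio to Astrocytes_1 of 2.68 ± 0.25, had 413 CPM and 452 in ependymal cells.

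**Figure D4:**
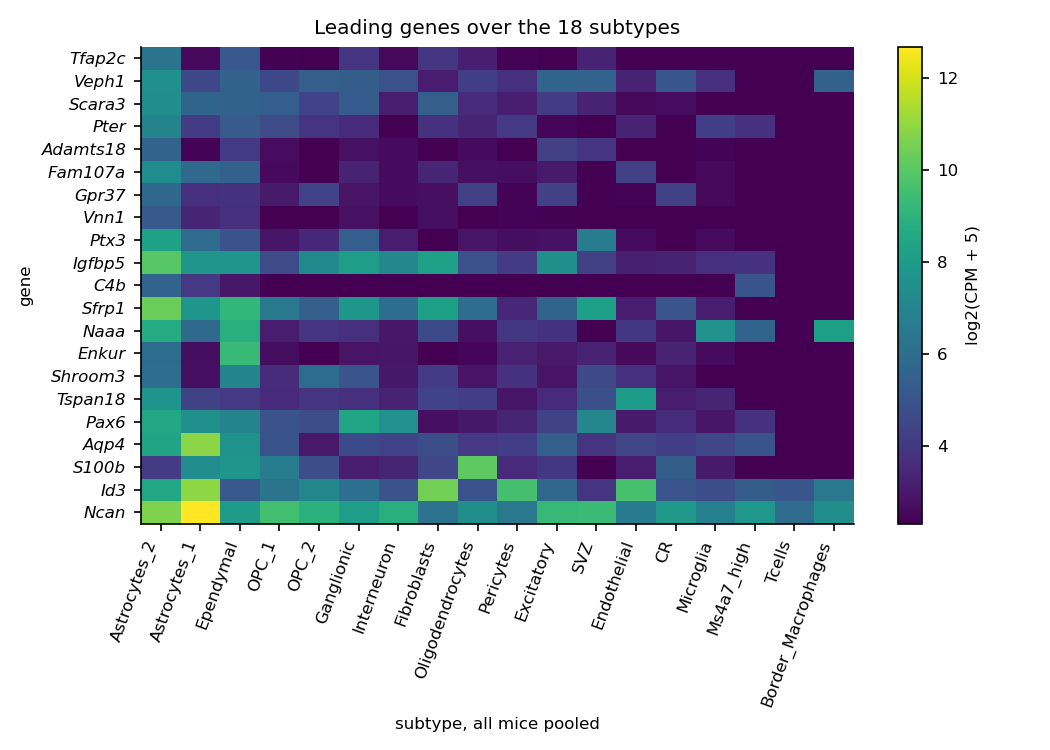
Level of 21 genes (y axis) in the pooled cells of each of the 18 subtypes (x axis), as log2 of CPM + 5 in colour. Within their rows *Veph1*, *Scara3*, *Pter*, *Igfbp5* and *Sfrp1* are highest in the leftmost column, Astrocytes_2, *Aqp4* and *Ncan* in Astrocytes_1 and *Enkur* in ependymal cells.

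*Fmr1*, the targeted gene on chromosome X (chrX:68678541-68717963, plus strand), was lower in the cells of every *Fmr1*-KO mouse. It had 66.3, 57.0 and 68.4 CPM (39, 17 and 19 UMIs) in Astrocytes_2 of the WT mice and 16.3, 21.1 and 14.1 CPM (7, 11 and 8 UMIs) in *Fmr1*-KO mice. In Astrocytes_1 it had 80.1 to 82.3 CPM in WT and 17.7 to 18.3 in *Fmr1*-KO mice. InDrop reads the 3′ end of transcripts, so that these values give the level of the transcript and not the state of the changed allele. With a UMI in 10.4% of the cells *Fmr1* was below the limit for the genotype test, and its genotype difference did not differ detectably between the subtypes (interaction of 0.21 on the log2 scale, SE 0.38).

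The genotypes were compared within Astrocytes_2 by edgeR's quasi-likelihood test on the summed UMIs of the mice (n = 3 per genotype), with TMM scaling and batch as a covariate. Among the 4085 genes that were seen in 15% or more of the cells, 0 (0%) passed at a Benjamini-Hochberg FDR under 0.01 and the minimum fold change of the study's methods. At an unadjusted p under 0.05 there were 174 genes (4.26%), 89 higher and 85 lower in *Fmr1*-KO mice, and DESeq2 called 0 genes with 38 at this level. Nothing in the labels shows whether mice shared a litter.

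*Gadd45g*, a growth arrest and DNA damage gene, came nearest to the threshold. It had 234, 205 and 443 CPM in WT mice and 97.8, 34.6 and 129 in *Fmr1*-KO mice. All 3 *Fmr1*-KO mice lay below all WT mice, by -1.59 on the log2 scale (SE 0.29, edgeR FDR = 0.106), by -1.75 within batch 1 and -1.30 within batch 2. *Tssc4*, a gene that lies within *Trpm5* of the opposite strand, had 88.3, 73.8 and 86.4 CPM in WT and 34.9, 46.1 and 33.5 in *Fmr1*-KO mice (-1.17, SE 0.26, edgeR FDR = 0.489). *Stat3*, a transcription factor gene of cytokine signalling and reactive gliosis, had 253, 292 and 288 CPM in WT and 184, 138 and 173 in *Fmr1*-KO mice (-0.71, SE 0.17, edgeR FDR = 0.556). Again the groups did not overlap, but neither gene passed the test. Of all 4085 genes tested, 122 had all 3 *Fmr1*-KO mice below all WT mice and 170 had them above. *Gadd45g*, *Tssc4* and *Stat3* were picked from these data by their small p. The other 7 genes with the smallest p and the same sign in both batches, *Mtif2*, *Mboat2*, *Crtc3*, *6330403K07Rik*, *Kars*, *Fscn1* and *Ephb1*, had log2 fold changes of 0.61 to 1.13 (edgeR FDR = 0.595 to 0.790).

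Astrocyte genes that the study names also did not pass in Astrocytes_2. The study compared astrocytes as a whole cell type, with size factors per cell. It reports *Ephb3*, *Epha4*, *Gabbr1* and *Slc6a9* as higher and *Mt1* and *Mt2* as lower in *Fmr1*-KO astrocytes. In Astrocytes_1, with mice as replicates, these genes had log2 fold changes of 0.43, 0.23, 0.34, 0.25, -0.58 and -0.64 in this order (edgeR FDR = 0.928). Their log2 fold changes in Astrocytes_2 were -0.05 for *Ephb3* and -0.02 for *Epha4*, Eph receptor genes, -0.14 for *Gabbr1*, -0.12 for *Slc6a9*, -0.22 for *Apoe*, and -0.46 and -0.40 for the metallothionein genes *Mt1* and *Mt2* (edgeR FDR of 0.990 or more). The SE was 0.26 for *Ephb3* and 0.25 for *Mt1*. Within batches *Ephb3* was at -0.52 and 0.51 and *Mt1* at 0.09 and -0.98. *Mt1* had 644, 896 and 1897 CPM in WT mice and 722, 651 and 704 in *Fmr1*-KO mice, so that WT 3 stood apart. *Gabbr2* was seen in too few cells to be tested. By list, 0 genes passed in any, and the median log2 fold change was -0.16 for 19 core astrocyte genes (0.10 within batch 1 and -0.28 within batch 2), -0.12 for 14 transmitter and potassium genes (0.14 and -0.36), -0.05 for 19 progenitor genes (-0.04 and -0.01), -0.40 for 3 metallothionein genes (0.16 and -0.91) and 0.04 for 80 ribosomal protein genes (-0.16 and 0.27), beside -0.002 for all genes tested. The 3 pan-reactive genes tested had a median of -0.66, with 0.01 within batch 1 and -1.34 within batch 2. These were *Gfap* (-0.72, SE 0.25), *Serpina3n* (-0.66, SE 0.28) and *Vim* (-0.05, SE 0.14), and the first 2 had an unadjusted p under 0.05 but an edgeR FDR of 0.990.

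Whether genotype acted differently in the 2 subtypes was asked with a subtype by genotype term, in a model with each mouse as a block and a subtype by batch term. Of 5011 genes 0 (0%) passed at FDR under 0.01, with 260 at an unadjusted p under 0.05, and DESeq2 called 0 with 63 at this level. At FDR under 0.05 there were 3 genes (0.0599%). *Gadd45g* had an interaction of -1.37 (SE 0.24, edgeR FDR = 0.0119), with 164, 323 and 477 CPM in Astrocytes_1 of the WT mice and 162, 166 and 301 in *Fmr1*-KO mice. *Apcdd1*, a gene for an inhibitor of Wnt signalling, had 93.4, 178 and 130 CPM in WT and 95.5, 57.6 and 58.3 in *Fmr1*-KO mice in Astrocytes_2, and 54.4, 103 and 89.2 against 99.7, 97.5 and 102 in Astrocytes_1 (-1.33, SE 0.24, edgeR FDR = 0.0129). For this gene *Fmr1*-KO 1 was within the range of the WT mice in Astrocytes_2.

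*Cst3*, the cystatin C gene, had 4035, 13743 and 15669 CPM in WT and 3924, 3387 and 9142 in *Fmr1*-KO mice in Astrocytes_2, and 4220, 14765 and 16329 against 4981, 4984 and 14061 in Astrocytes_1 (-0.48, SE 0.09, edgeR FDR = 0.0199). Its level was higher in the mice of batch 2 in both subtypes. *Cst3* is also expressed by microglia, and the microglia marker sums of 560 and 695 CPM in WT 2 and WT 3 against 275 in *Fmr1*-KO 3 moved with it, and their part was not tested. The next genes, *Tssc4* (-1.31, edgeR FDR = 0.112) and *Clu* (-0.48, edgeR FDR = 0.169), did not pass, nor did *Stat3* (-0.64, edgeR FDR = 0.259).

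**Figure D5:**
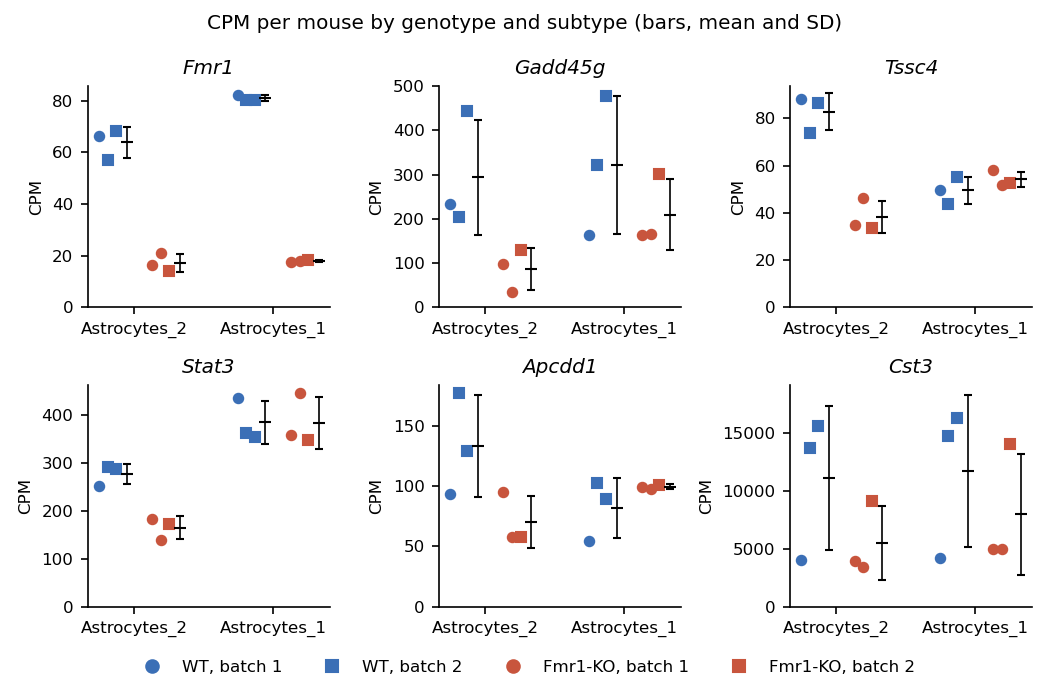
CPM (y axes) of 6 genes in each mouse, for Astrocytes_2 on the left and Astrocytes_1 on the right of each panel (blue WT, red *Fmr1*-KO, circles batch 1, squares batch 2; bars are mean and SD, n = 3). *Gadd45g*, *Tssc4* and *Stat3* are lower in all 3 *Fmr1*-KO mice than in all WT mice in Astrocytes_2 and overlap in Astrocytes_1. Of 4085 genes tested in Astrocytes_2, 122 were lower in this way. *Cst3* follows the batch in both subtypes.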

How the data were processed

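Cortices were dissociated with papain and 17 InDrop libraries were sequenced. The authors aligned reads with TopHat 2.0.14 to mm10 and RefSeq transcripts, counted UMIs per gene with ESAT (reads with several positions ignored), merged UMIs seen once with others that differed by 1 base, removed barcodes under 700 UMIs, erythrocytes, part of the doublets and hemoglobin genes, and deposited raw UMI counts of 17418 genes without normalization. Subtypes and clusters were those the authors deposited. They came from density clustering of batch-corrected components in 2 rounds, and the 1113 cells marked as doublets were left out. Replicates are mice.

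Counts were summed per mouse and subtype (Python 3.11.15, numpy 2.4.6, pandas 2.3.3, scipy 1.17.1, matplotlib 3.10.9). Genotype and interaction were tested by edgeR 4.0.16 in R 4.3.3, each checked on simulated data, with DESeq2 1.42.0 as an alternative. Sums of few cells, 69 in WT 3, limit precision. Intervals cover counting error only. Alternatives were other pseudocounts, filters, thresholds, scalings, thinning, model terms and totals, and each mouse left out. The 29 gene lists, the members and the tests were chosen with earlier results of these data known.

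Named genes were, by rule, the markers and *Fmr1*, the 12 highest and 8 lowest mean ratios, up to 5 members with the largest ratios per list and any member needed to say which are absent, the 8 highest against the next subtype at 20 CPM or more, the 10 smallest genotype p with the same sign in both batches, the astrocyte genes the study names, and the 5 smallest interaction p. *Sfrp1*, *Naaa*, *Veph1* and further list members were named after their values were seen. A few genes that these rules name are not reported here.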

Additional observations from a re-analysis of the deposited data

Results flagged for a closer look

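Genes were set apart here where the genotype effect differed between the subtypes at an interaction FDR under 0.05 by edgeR, or where 1 of the 6 mice lay far from the others. The interaction was -1.37 on the log2 scale for *Gadd45g*, where the genotype difference was -1.59 in Astrocytes_2 and -0.21 in Astrocytes_1. For *Apcdd1* it was -1.33, from -0.83 in Astrocytes_2 and 0.45 in Astrocytes_1. For *Cst3* it was -0.48, from -0.43 in Astrocytes_2 and 0.06 in Astrocytes_1, beside the microglia marker sums already given. All 3 missed an FDR of 0.01.

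*Fam107a* in WT 3 had a log2 ratio of Astrocytes_2 to Astrocytes_1 of 0.81, against 3.11 to 3.62 in the other 5 mice. The gap was 0.819 of the whole range, above Dixon's 95% critical value for 6 samples. This was the 1 gene beyond that value among 28 leading genes examined, and chance alone gives about 1 in 20.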

How the results depend on the processing

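The genotype difference in the share of Astrocytes_2 was 6.34 percentage points, and -0.454 within batch 1. With each mouse left out it was 4.12 to 9.68 (exact permutation p = 0.20 to 0.60). The smallest possible exact permutation p is then 0.20, which was reached without WT 1 (9.68 points). With the replicate number as a block, an exact sign flip gave p = 0.50 (smallest possible 0.25). The number of higher genes was 157 with 20 CPM added, 152 among genes seen in 15% of the cells, 423 without a filter, 789 at 1.5-fold, 45 at a log2 ratio of 2 and 270 to 288 without single mice. The number of lower genes was 133 with 20 CPM added, 488 at 1.5-fold, 28 at a log2 ratio of 2, 347 under TMM scaling and 207 to 219 without single mice. With cells thinned to 700 UMIs, 232 genes were higher, and 171 of these were among the 273. In the same setting 298 genes were lower, and 175 of these were among the 200, so that lower genes then outnumbered higher ones. The deeper cluster alone, added after seeing the data, gave 271 and 206. For genotype, edgeR called 1 gene (*Gadd45g*) with the replicate block and 4 without a filter (*1110017D15Rik*, *Crym*, *Fmr1*, *Gadd45g*). Leaving out single mice gave 0 to 1 (*Gadd45g* without *Fmr1*-KO 1). In other settings *Gadd45g* was far from passing. Its edgeR FDR was 0.999 without the batch term, 0.877 without WT 1 and 0.994 without *Fmr1*-KO 3. DESeq2 gave it an FDR of 0.9999. Its log2 fold change was -1.75, -1.34, -1.86 and -1.59 in these settings, in this order. For the interaction edgeR called 1 gene with the replicate block and 1 with filterByExpr (*Gadd45g* both times). Without a filter it called 6 (*Apcdd1*, *Crym*, *Cst3*, *Gadd45g*, *Gfap*, *Igfbpl1*), and at FDR under 0.05 it called 3. Leaving out single mice gave 0 to 1 (*Gadd45g* without WT 2). The deviations of same-numbered mice correlated at 0.43, -0.18 and 0.40, not above 0.1 in every pair, and WT 2 correlated best with *Fmr1*-KO 3 (0.32), so that the numbers were not taken as pairs. WT 2 and *Fmr1*-KO 2 were in different batches, unlike the mice numbered 1 and 3. Pairs within a batch correlated at 0.32 to 0.43 and pairs across batches at -0.60 to -0.18. Because these values followed the batch, they cannot show whether mice were paired. Among 238 log2 fold changes of 17 named genes under the alternatives, 12 reversed. With thinned cells *Ephb3* was at 0.093 and *Epha4* at 0.095, and *Gabbr1* was at 0.10 without the batch term and 0.14 with the replicate block. With each mouse left out *Ephb3* ranged from -0.56 to 0.51 (reversed without WT 1 or *Fmr1*-KO 2), *Epha4* from -0.31 to 0.30 (likewise), *Slc6a9* from -0.84 to 0.46 (reversed without WT 2 or *Fmr1*-KO 3), *Mt1* from -1.01 to 0.10 and *Mt2* from -0.94 to 0.16 (both reversed without *Fmr1*-KO 3). None of these 12 had passed the test before, and the cause was not tested. Counts per gene limit what can be seen: genes below 15% of cells were not tested for genotype.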
